A study of Rattus norvegicus with 30 samples.

Results

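The cluster of weakly methylated CpG sites described here lies on chromosome 6 of the rat (rn5 build), between positions 39260000 and 39285000. All deposited cytosines in this window were taken, with the CpG, CHG and CHH contexts kept apart. In the calls made for aged against young rats the window held 176 of 85484 CpG sites, 110 of 266960 CHG sites and 241 of 707223 CHH sites. In the calls made for aged impaired against aged unimpaired rats it held 169 of 80903 CpG sites, 105 of 256337 CHG sites and 223 of 687718 CHH sites. The window was selected on its low CpG methylation ratios, so that its low level is a description and not a result.

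DNA methylation in the mammalian brain is found mostly at cytosines followed by guanine, and most such CpG sites are methylated on the majority of DNA copies. Stretches in which many CpGs lie close together are the usual exception and tend to be methylated weakly. A CpG reads the same on both DNA strands, and both of its cytosines are as a rule methylated alike, because the enzyme that copies methylation at replication acts on sites methylated on 1 strand.

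Whole genome bisulfite sequencing was performed on DNA from the medial prefrontal cortex (prelimbic and infralimbic areas) of 30 male Fischer 344 rats, 1 library per rat. The 10 young rats were 5 to 6 months old and the 20 aged rats 17 to 22 months old. Bisulfite treatment leaves methylated cytosine unchanged and converts unmethylated cytosine to a base read as thymine. A site's methylation ratio is the fraction of its reads that still show cytosine, from 0 to 1. At 17 to 22 months, 9 rats had been classed as impaired (AI) and 11 as unimpaired (AU) by a split at the mean score of an attentional set-shifting task, a test of behavioral flexibility. No rat received a drug or carried a transgene according to the labels, and the young rats were not divided by behavior. The tissue is a mixture of neurons and glia, so that a change in cell makeup and a change in methylation within cells cannot be told apart.

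The identifier numbers of the rats fall into 3 number series, which are called A (1918 to 1936), B (2173 to 2191) and C (121412 to 121448). Their meaning is not described in the sources used here, and they were treated as a possible batch. The aged rats comprised 11 of series A, 8 of series B and 1 of series C, and the young rats 3, 3 and 4. Because 4 of the 10 young rats and only 1 of the 20 aged rats were in series C, age and series cannot be told apart fully. Beyond the minimum of 5 reads, the depth behind the ratio of a single rat is not part of the values used here. The number of CpG sites of the window with a value ranged from 51 to 166 in aged rats and from 59 to 173 in young rats.

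Within the window the CpG sites formed 5 runs, separated by gaps of at least 1000 bp. The first run (positions 39260391 to 39261366) held 16 CpGs with a mean ratio of 0.829 over all rats. The second run (39264619 to 39264681) held 14 CpGs with a mean ratio of 0.308, and every one of them had a mean below 0.5. The third run (39266261 to 39266301) held 5 CpGs, whose mean ratios went from 0.0533 to 0.987 within 41 bp. The fourth run (39270996 to 39271560) had 138 CpG positions in 565 bp in the calls for age and 137 in the calls for impairment. It is called the dense run here. Its mean ratio was 0.255, and 131 of its 138 sites had a mean below 0.5. The fifth run (39275106 to 39276021) held 3 CpGs with mean ratios from 0 to 0.727.

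**Figure D1:**
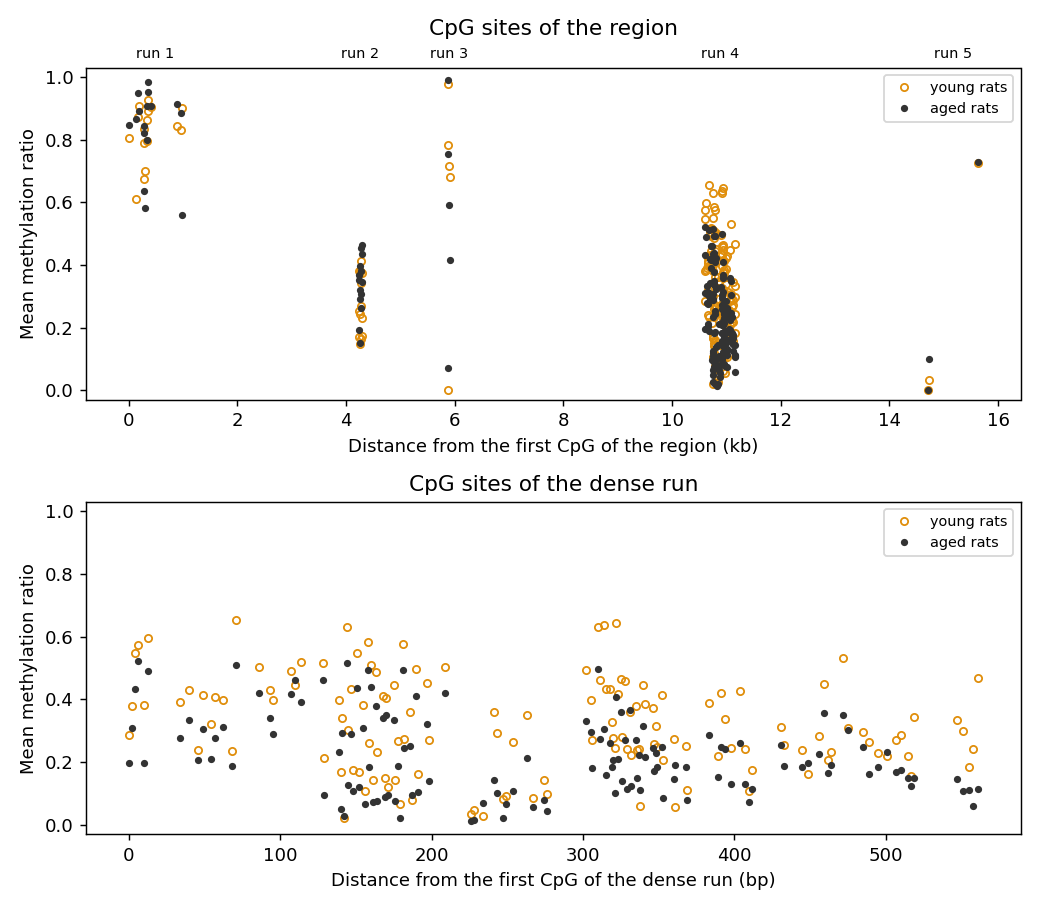
Mean methylation ratio of each CpG site in the 20 aged rats (filled) and the 10 young rats (open), against the distance from the first CpG of the window in kb (top) and from the first CpG of the dense run in bp (bottom). Run 1 lies near the top of the scale, the dense run below 0.7, and most sites of the dense run have the open symbol above the filled one.

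Over the whole window the median of the site means was 0.269, while it was 0.785 over all deposited CpG sites. Of the 176 CpGs, 84.1% had a mean ratio under 0.5, against 15.5% of all CpG sites and 24.2% of the 389 CpG sites within 1 Mb on either side. The nearest deposited CpG before the window, at 39259696, had a mean ratio of 0.785, and the first one inside, at 39260391, had 0.835. The last one inside, at 39276021, had 0.727, and the nearest one after the window, at 39295196, had 0.755. The low ratios were therefore those of the dense run, of run 2 and of single sites in runs 3 and 5, and the edges of the window had ratios like those of other CpGs. The SD of a site over rats had a median of 0.157 in the dense run and 0.133 over all CpG sites.

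The first question was whether the cluster differs with age. In the dense run the mean ratio of a rat was 0.115 at the lowest, 0.193 at the median and 0.424 at the highest of the 20 aged rats. In the 10 young rats it was 0.158 at the lowest, 0.374 at the median and 0.544 at the highest. The aged mean was 0.236 ± 0.0979 (SD, n = 20) and the young mean 0.357 ± 0.128 (SD, n = 10), which differed by -0.121 (aged minus young) with a standard error of 0.0460. The groups overlapped, in that 4 aged rats lay below every young rat and 3 young rats lay above every aged rat. Over all CpGs of the window the aged mean was 0.286 ± 0.0825 and the young mean 0.392 ± 0.105, which differed by -0.106 with a standard error of 0.0378. The mean over all deposited CpG sites was 0.698 for the aged and 0.702 for the young group, a difference of -0.00404 with a standard error of 0.00117, with 14 of 20 aged rats under the lowest young value.

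The number series also moved with these ratios. In the dense run the 11 aged rats of series A had ratios from 0.115 to 0.241, with a mean of 0.170 ± 0.0379 (SD, n = 11). The 8 aged rats of series B had ratios from 0.212 to 0.424, with a mean of 0.335 ± 0.0721, counted over 8 rats. In series A, 10 of the 11 aged rats had a lower ratio than any aged rat of series B, and the difference was -0.165 with a standard error of 0.0279. The single aged rat of series C had 0.170. Among young rats, the 3 of series A had ratios from 0.158 to 0.262, below the 3 of series B (0.371 to 0.531) and the 4 of series C (0.289 to 0.544). Over all deposited CpG sites the series did not separate in this way, with means of 0.698 in series A and 0.699 in series B of the aged rats.

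**Figure D2:**
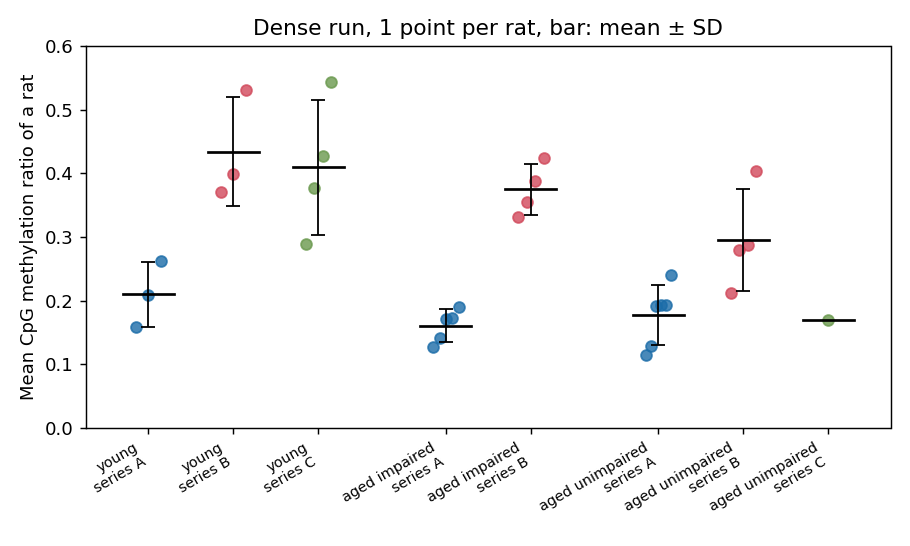
Mean CpG methylation ratio of each rat over the dense run (vertical axis, ratio from 0 to 1 shown up to 0.6) by group and number series, with 1 point per rat, the group mean as a line and 1 SD as a bar where there is more than 1 rat. Among young rats the 3 of series A lie lowest, and among aged rats 10 of the 11 of series A lie below every rat of series B, with the 1 rat of series C at 0.170.

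Within each series the aged rats had the lower mean. In series A the dense run averaged 0.170 over 11 aged and 0.210 over 3 young rats, which differ by -0.0400 with a standard error of 0.0320. In series B it averaged 0.335 over 8 aged and 0.434 over 3 young rats, which differ by -0.0984 with a standard error of 0.0556. In series C the 1 aged rat, at 0.170, lay below all 4 young rats, whose mean was 0.410 ± 0.106. The differences within series A and series B were each under 2 standard errors, and whether they differ from each other was not tested. Aged rats were lower at 109 of 138 sites of the dense run in series A, at 70 of 120 in series B and at 124 of 130 in series C, beside 50.5%, 48.5% and 45.8% of all CpG sites in the same series, neighboring sites being read largely on the same DNA fragments.

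The number of sites with a value also moved with the series. In the dense run it ranged from 102 to 137 in aged rats of series A and from 41 to 121 in aged rats of series B. Over the 8 sites of the dense run with a value in every rat, aged rats were lower than young rats by a difference of -0.110, and aged rats of series A lower than those of series B by -0.191. Without the rats with the fewest sites (a value at under 50% of them), the age difference was -0.103 over 18 aged and 9 young rats and the series difference -0.194 over 11 and 6 aged rats. These choices were made after seeing the data. Both differences were thus of similar size with the better covered sites and rats.

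Each site was then tested for age, with p-values adjusted over all deposited CpG sites. Of the 176 CpGs of the window, 28 passed an unadjusted p of 0.05 (15.9%), while 6.13% of the 85483 CpG sites tested did. At 26 of the 28 sites the aged rats had the lower ratio, beside 3.72% of all CpG sites tested that were called in this direction. No CpG of the window passed after Benjamini-Hochberg adjustment over all sites, the smallest adjusted p being 0.547, and 59 sites did over the whole table (0.0690%). With limma 40 sites of the window passed unadjusted, beside 6.64% of all sites, and 0 adjusted. The 2 sites with the higher ratio in aged rats were CpG 39260669 in run 1 and CpG 39266261 in run 3, which was at 0 in 4 young rats and at a mean of 0.0727 in 11 aged rats. Of the 28 sites, 25 lay in the dense run, all with the lower ratio in aged rats, and aged rats had the lower mean at 129 of its 138 sites with a median difference of -0.0891. Over all CpG sites the median difference was within 0.01 of 0, and 42770 of the 85483 sites were lower in aged rats.

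The calls depended on the series. Without series C, 6 of 161 testable sites passed, 3 of them lower in aged rats, beside 6.39% over all sites. Without series A, 9 of 146 passed, beside 4.58% over all sites, and without series B, 48 of 175 passed, beside 6.62%. With the number series as a covariate in limma, 29 of 176 sites passed, 28 of them lower in aged rats, beside 6.50% of all sites. The count of sites without series C was thus no higher than that over all sites.

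The same test between the aged rats of series A and of series B could be made at 143 CpGs of the window. At 72 of them (50.3%) the unadjusted p was under 0.05, while this held for 8.84% of the 42276 CpG sites tested. Series A had the lower ratio at 71 of the 72 sites, beside 5.84% of all sites called in this direction. After adjustment over all sites 7 CpGs of the window passed (smallest adjusted p = 0.00148), beside 0.849% of all sites. In the dense run series A was lower at each of the 118 sites tested, and 71 of these passed unadjusted. The smallest p was at CpG 39271182, named here after its values were seen, where the mean was 0.156 ± 0.0951 over 11 rats of series A and 0.406 ± 0.0405 over 7 of series B. Of the 72 sites, the single one with the higher ratio in series A was CpG 39276021 in run 5, with means of 0.796 over 9 and 0.478 over 3 rats. In runs 1 and 2 none of the 22 sites tested passed unadjusted or adjusted.

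**Figure D3:**
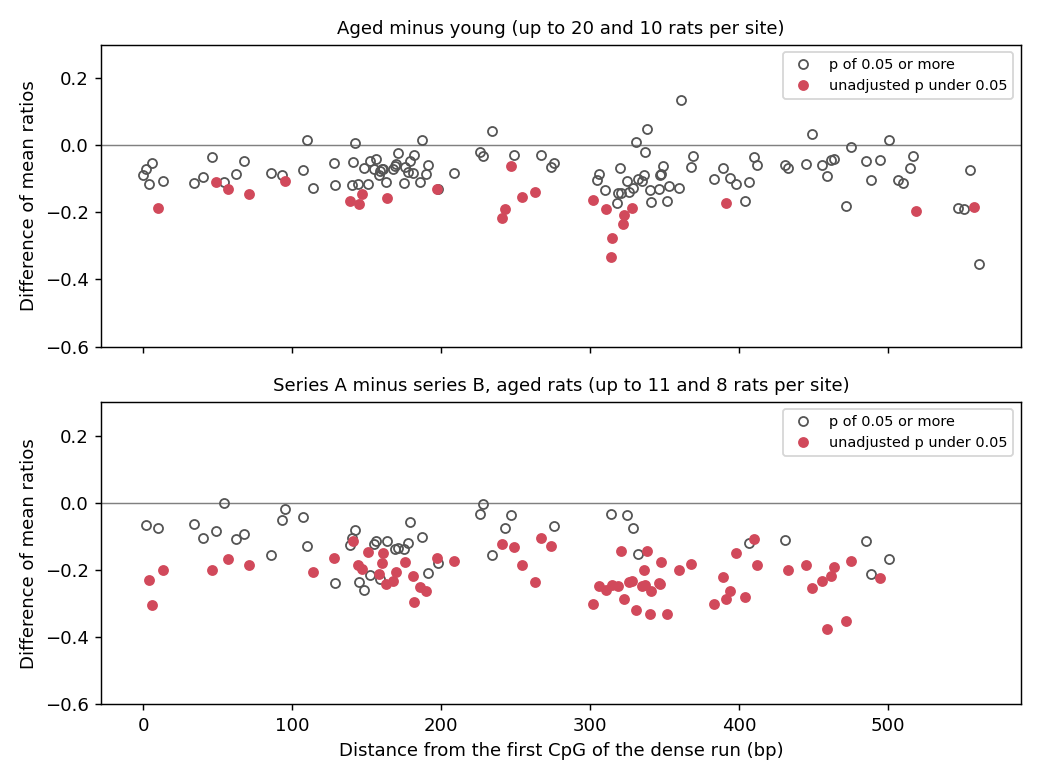
Difference of mean ratios at each CpG of the dense run against the distance from its first CpG in bp, for aged minus young rats (top) and for aged rats of series A minus those of series B (bottom). Filled points have an unadjusted p under 0.05 (25 sites at the top, 71 at the bottom), and all of them lie below 0.

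Along the dense run the difference between the ages did not sit in one place. In the first 100 bp the 18 sites averaged 0.323 for the aged and 0.422 for the young group, and 5 passed unadjusted, where 6.13% of all CpG sites did. From 100 to 199 bp from the first CpG the 39 sites averaged 0.246 for the aged and 0.327 for the young group, and 5 passed. The level was lowest from 200 to 299 bp, where the 13 sites averaged 0.104 for the aged and 0.183 for the young group and 5 passed. From 300 to 399 bp the 40 sites averaged 0.223 for the aged and 0.339 for the young group, and 8 passed. From 400 to 499 bp none of the 17 sites passed, and the means were 0.211 and 0.278. In the last 11 sites, from 500 to 599 bp, the means were 0.140 and 0.275, and 2 passed.

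Single sites show the values behind these counts. At CpG 39271006, which had the smallest p for age in the window, the 18 aged rats with a value went from 0.0588 to 0.389 with a median of 0.169. The 10 young rats went from 0.154 to 0.667 with a median of 0.388. The difference of means was -0.186 (permutation p = 0.00124, adjusted p over all sites = 0.547), and 6 aged rats lay below every young rat. Within series A the difference was -0.0358 over 11 aged and 3 young rats (exact p = 0.511), and within series B it was -0.243 over 6 aged and 3 young rats (exact p = 0.0238). The young rats of series B and C, from 0.273 to 0.667, held the high values.

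At CpG position 39271160 most aged rats with a value had no methylated read. The 16 aged rats went from 0 to 0.5 with a median of 0, and the 6 young rats from 0.1 to 0.333 with a median of 0.225. The difference of means was -0.159 (exact permutation p = 0.0209), and 11 aged rats had a lower ratio than any young rat. Only 6 young rats had a value here, 3 of them from series A. Within series A the difference was -0.163, from means of 0.0421 over 10 aged and 0.205 over 3 young rats (exact p = 0.0175). The adjacent position 39271159, taken as the other strand of 39271160, averaged 0.378 over 18 aged and 0.487 over 10 young rats (Welch p = 0.171).

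At CpG 39271311 the 18 aged rats went from 0 to 0.464 with a median of 0.114, and the 10 young rats from 0 to 0.8 with a median of 0.455. The difference of means was -0.276 (permutation p = 0.00225). Series A held low values in both ages, with means of 0.0674 in 10 aged and 0.120 in 3 young rats. In series B the means were 0.311 in 7 aged and 0.638 in 3 young rats (exact p = 0.05). The adjacent position 39271310, taken as the other strand of 39271311, averaged 0.306 over 12 aged and 0.638 over 7 young rats (Welch p = 0.0135).

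In all, 10 CpGs of the window had a value in all 30 rats, 8 of them in the dense run. At each of these 8 the aged rats had the lower mean, and 4 of them passed unadjusted, where 6.13% of all CpG sites tested did. The share among all CpG sites with a value in every rat is not given here. The 2 of the run with the lowest positions, CpGs 39271250 and 39271259, were both among those 4. At CpG 39271250 the aged rats went from 0 to 0.4 with a median of 0.0576 and the young rats from 0 to 0.529 with a median of 0.226, a difference of means of -0.154 (permutation p = 0.0142). At CpG 39271259 the aged rats went from 0 to 0.556 with a median of 0.167 and the young rats from 0.111 to 0.529 with a median of 0.410, a difference of means of -0.139 (permutation p = 0.0321). At both sites the aged rats of series A had the lower mean. At CpG 39271250 the 11 aged rats of series A had a mean of 0.0344 and the 8 of series B a mean of 0.219. At CpG 39271259 these means were 0.122 and 0.357. Within series A or series B neither age difference passed an exact test (p from 0.0970 to 0.388).

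Run 1 had high ratios at both ages. Its mean ratio per rat was 0.827 ± 0.0396 for the aged and 0.816 ± 0.0484 for the young group, which differed by 0.0112 with a standard error of 0.0177. The series did not separate there, with means of 0.838 in series A and 0.815 in series B of the aged rats. The other 2 of the 10 sites valued in all 30 rats lie in this run. At CpG 39260669 the aged rats went from 0.735 to 0.944 with a median of 0.859 and the young rats from 0.72 to 0.905 with a median of 0.780, a difference of 0.0549 in the opposite direction to the dense run (permutation p = 0.0183, adjusted p over all sites = 0.713). At CpG 39260680 the aged rats went from 0.541 to 0.75 and the young rats from 0.542 to 0.806, and the difference of -0.0379 did not pass (permutation p = 0.123).

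Tables of the study place 3 CpGs of the window, all of them in run 1, in an intron of LOC257642, a provisional rat locus symbol. CpG 39261366 was listed as differing with age and as correlated with RNA level. There the 5 aged rats with a value had ratios of 0.556, 0.625 and 0.625 (AI) and of 0.2 and 0.8 (AU). The 5 young rats had ratios of 0.769, 0.857, 0.875, 1 and 1. The difference of means was -0.339 (exact permutation p = 0.0159), 4 aged rats had a lower ratio than any young rat, and the adjusted p over all sites was 0.710. The difference of medians was -0.25 (exact p = 0.119). This site was chosen for those tables on these samples, so that its difference is not independent evidence.

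The other 2 listed sites belong to the comparison with set shifting. The study listed them by correlation with the task score and with RNA, while the means of AI and AU rats are compared here. The p-values below are therefore not those of the study's criterion. At CpG 39260727 the 6 AI rats with a value went from 0.714 to 1 with a median of 0.861, and the 9 AU rats from 0.636 to 0.9 with a median of 0.733. The difference of means was 0.0977 (exact p = 0.0575) and that of medians 0.127 (exact p = 0.0382). Within series A the means differed by 0.0339 (exact p = 0.476) and within series B, with 2 rats per group, by 0.286 (exact p = 0.333). The adjacent position 39260728, taken as the other strand of 39260727, averaged 0.897 over 5 AI and 0.919 over 4 AU rats. At CpG 39261354 only 3 rats per group had a value, from 0.818 to 1 in AI and from 0.6 to 1 in AU rats, where an exact test cannot go below 0.1.

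The second question was whether the cluster differs between impaired and unimpaired aged rats. In the dense run the mean ratio was 0.128 at the lowest, 0.195 at the median and 0.425 at the highest of the 9 AI rats. In the 11 AU rats it was 0.115 at the lowest, 0.190 at the median and 0.404 at the highest. The ranges thus covered nearly the same values, and the difference of means was 0.0392 with a standard error of 0.0458. In series A it was -0.0116 with a standard error of 0.0222 over 5 AI and 6 AU rats. In series B it was 0.0805 with a standard error of 0.0447 over 4 AI and 4 AU rats, where 3 AU rats lay below every AI rat. Whether the series differ in this respect was not tested.

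The AI rats had the higher mean at 105 of the 137 sites of the dense run, with a median difference of 0.0355, and at 40109 of the 80901 sites tested over the whole table. In series A they were higher at 61 of 137 sites and in series B at 87 of 120, beside 39922 of 80103 and 22486 of 49567 of all CpG sites. Of the 169 CpGs of the window, 2 passed an unadjusted p of 0.05 between AI and AU rats (1.18%), below the 4.10% of the 80901 CpG sites tested, and none passed after adjustment, which 0.00865% of all sites did (limma gave 3 unadjusted, beside 5.51% of all sites, and 0 adjusted). At CpG 39271171 the 9 AI rats went from 0.167 to 0.762 with a median of 0.357 and the 9 AU rats with a value from 0.0769 to 0.375 with a median of 0.267. The difference of means was 0.147 (exact permutation p = 0.0320), and 4 AI rats lay above every AU rat. The difference did not pass an exact test with medians (p = 0.0880), within series A (p = 0.123) or within series B (p = 0.733). The adjacent position 39271172, taken as the other strand of 39271171, averaged 0.0763 over 8 AI and 0.0774 over 9 AU rats. At CpG 39271543 the 3 AI rats with a value, all of series A, were at 0. The 4 AU rats were at 0.0833 and 0.333 (series A), 0.2 (series B) and 0.4 (series C). The groups did not overlap, and the exact p of 0.0571 is the smallest that these numbers of rats can give. The site with the third smallest p, CpG 39271560, had ratios of 0.333, 0.375 and 0.6 in AI and of 0.111, 0.111 and 0.167 in AU rats (exact p = 0.1, the smallest possible), all of them from series A. It lies 17 bp from CpG 39271543 and differed in the opposite direction.

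**Figure D4:**
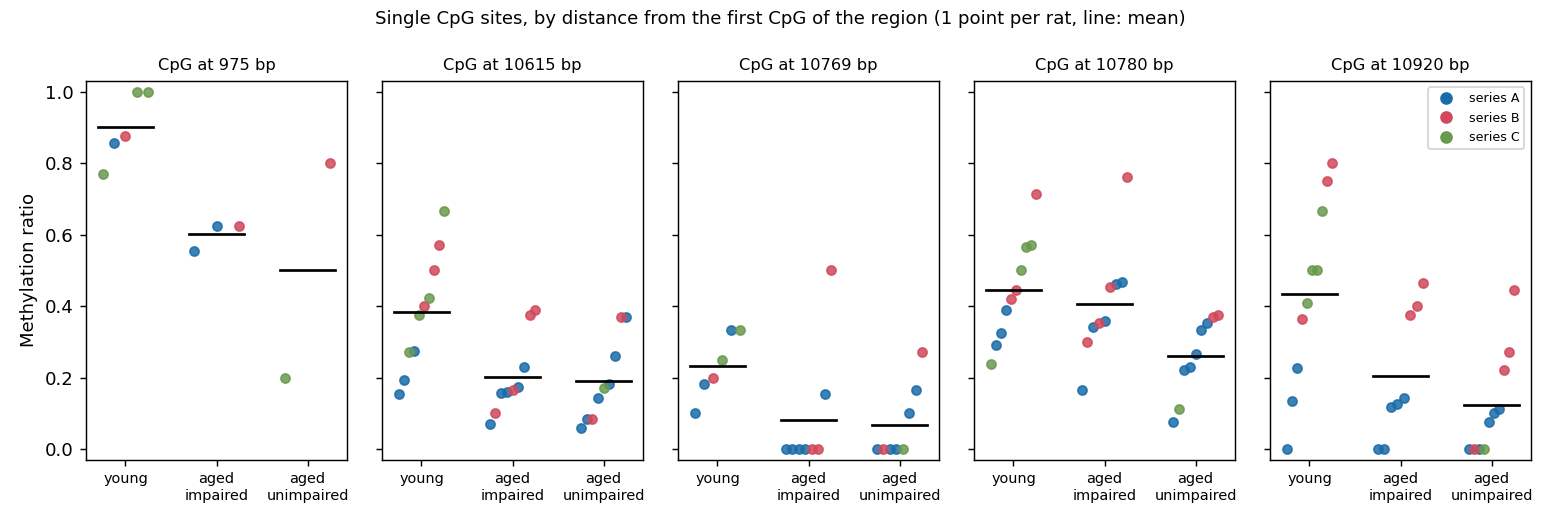
Methylation ratio of every rat with a value (vertical axis, 0 to 1) at 5 single CpG sites, named by their distance in bp from the first CpG of the window, by group and colored by number series, with the group mean as a line. From left to right these are CpGs 39261366, 39271006, 39271160, 39271171 and 39271311, and at 39271311 the rats of series A lie below 0.25 in every group.

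Adjacent CpG positions in the files are the cytosines of the 2 strands of 1 CpG, the first on the forward strand. Strand was assigned from adjacency alone, and a pair whose outer neighbors are not among the deposited sites could join 2 neighboring CpGs. The window held 39 such pairs, of which 35 lay in the dense run. These 35 pairs are the ones with both strands, while 68 further positions of the dense run were listed on 1 strand only. In all 35 pairs the first position had the higher mean ratio, with a median difference of 0.231 and a range from 0.0192 to 0.349. This held for 35 pairs in young rats alone and for 34 in aged rats alone. Among the 8269 pairs elsewhere in the table with at least 6 rats, the first position was higher in 45.2% and by more than 0.1 in 12.3%, with a median difference of -0.00837. In the dense run 30 of the 35 pairs differed by more than 0.1. The first position was thus higher in all pairs of the run, whereas the pairs elsewhere, as a whole, had no such direction. The direction was not particular to the run, since at the chromosome 14 locus that shares its gene name in the study's tables the first position was higher in 12 of 13 pairs.

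**Figure D5:**
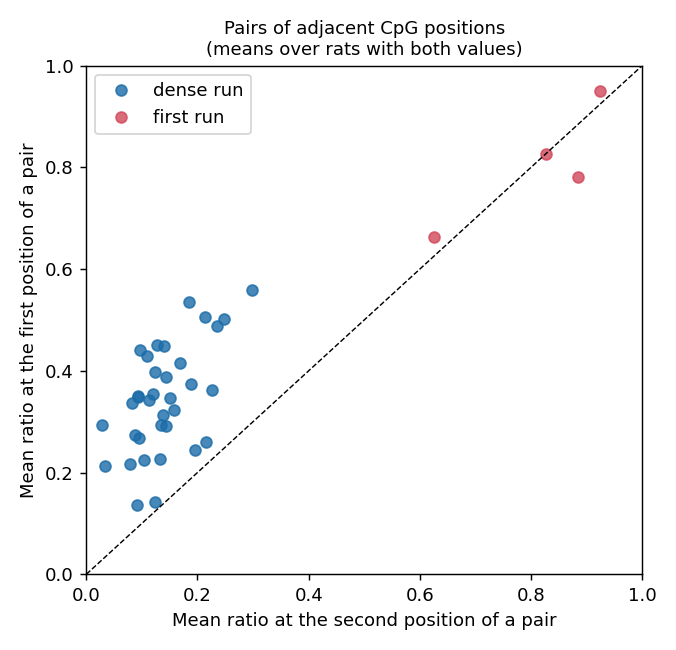
Mean ratio at the first position against that at the second position of each pair of adjacent CpG positions, over the rats with a value at both, for the 35 pairs of the dense run and the 4 pairs of the first run. The dashed line marks equal ratios, and the dense run lies wholly above it.

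The pairs fell into 2 groups along the run. The 18 pairs between 39271124 and 39271194 averaged 0.378 at the first and 0.122 at the second position. The largest difference, 0.349, was at the pair 39271140 and 39271141, where the means were 0.535 and 0.186 and the first position was higher in 19 of 20 rats. The 17 pairs between 39271301 and 39271365 averaged 0.311 and 0.160. There the difference was smallest at the far end, from 0.0192 to 0.0941 at the last 5 pairs, which had values in 6 to 20 rats, and those 5 included the lowest difference of the run. In the 4 pairs of run 1 the first position was higher in 3, and the differences had a median of 0.0134, the lowest being -0.103 and the highest 0.0381.

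The strand difference was present in every rat that could be examined. Of the 30 rats, 23 had at least 10 pairs with both values, and in all 23 the first positions had the higher mean, by 0.0558 to 0.387. It averaged 0.226 ± 0.0853 (SD) over 16 aged rats and 0.204 ± 0.0521 over 7 young rats, so that the age groups differed by less than the spread between rats. The aged rat with the smallest difference, AI rat 7 of series B, had 0.499 at the first and 0.443 at the second positions over 29 pairs. The young rat with 35 pairs, of series A, had 0.388 and 0.151, and the first position was higher at all 35. Separately by strand, the difference between aged and young rats was -0.122 over the first and -0.141 over the second positions of the dense run, so that the age difference was found on either strand. Why the strands differ was not tested.

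CHG and CHH cytosines, where H stands for any base but guanine, were almost free of methylation in the window. The median of the site means was 0.00778 over 110 CHG sites and 0.00469 over 241 CHH sites, against 0.0101 and 0.00617 over all sites of these contexts. Over the dense run, the mean ratio of a rat in the CHG context was 0.0119 ± 0.00999 (SD, n = 20) for the aged and 0.0113 ± 0.00632 (SD, n = 10) for the young group. In the CHH context these means were 0.00580 ± 0.00330 and 0.00979 ± 0.00598, which differed by -0.00398 with a standard error of 0.00203. Between aged rats of series A and series B the difference was -0.0100 in the CHG context, with a standard error of 0.00485, and -0.00197 in the CHH context, with a standard error of 0.00168. In absolute terms these differences were at most 0.0100, while that of the CpG sites between the same series was -0.165. The levels were unlike too. The CHG means were 0.00786 in series A and 0.0179 in series B, and the CHH means 0.00499 and 0.00696. The CpG means were 0.170 and 0.335.

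In the CHG context 2 sites had a mean ratio over 0.1, both in run 1. In the CHH context 1 site did in the calls for age, CHH 39271303 in the dense run, at 0.148. Its means were 0.16 over 5 aged and 0.133 over 4 young rats (exact p = 0.825), and 5 of these rats were above 0. CHG 39260623 was methylated in all 14 rats with a value, with means of 0.244 ± 0.0670 over 7 aged and 0.209 ± 0.0701 over 7 young rats (exact p = 0.340). CHG 39260710 had means of 0.140 over 20 aged and 0.125 over 10 young rats (permutation p = 0.675), and of 0.177 in 9 AI and 0.109 in 11 AU rats (exact p = 0.0585). Of the 4 CHG sites with a mean over 0.1 in an age group, 1 passed an unadjusted p of 0.05 for age, beside 8.98% of the 14554 CHG sites tested, and of the 4 such CHH sites 2 passed, beside 8.81% of 28017. CHG 39275152, in run 5, had ratios from 0 to 0.125 in 14 aged rats and from 0.0714 to 0.143 in 4 young rats (exact p = 0.00327, adjusted p over all sites = 0.0859). CHH 39261320 was at 0 in all 6 young rats and between 0 and 0.333 in 12 aged rats (exact p = 0.0407, adjusted p over all sites = 0.146). CHH 39276031 was at 0 in 3 young rats and between 0 and 0.286 in 11 aged rats (exact p = 0.258, adjusted p over all sites = 0.318). No site of either context passed after adjustment. Between AI and AU rats 0 of 3 CHG sites passed unadjusted, beside 6.23% of all CHG sites tested, and 0 of 2 CHH sites, beside 6.10%.

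The remaining runs held few sites and few rats. In run 2, 9 aged and 7 young rats had a value, with means of 0.321 ± 0.146 and 0.280 ± 0.147, a difference of 0.0408 with a standard error of 0.0739. The direction was the opposite in series A (-0.0638, from 4 aged rats against 2 young) and in series B (-0.0876, from 5 aged rats against 1 young), and the 4 young rats of series C had a mean of 0.180 with no aged rat beside them. In this run none of the 14 sites passed unadjusted for age. In run 3 the mean ratio per rat was 0.574 ± 0.0840 over 12 aged and 0.686 ± 0.181 over 6 young rats, which differ by -0.112 with a standard error of 0.0779. The 1 young rat of series B with a value was at 1, and without series B the difference was -0.0491 from 12 aged rats against 5 young. Without series A it was 0.00397, from 1 aged rat against 3 young, and without series C -0.194, from 11 aged rats against 4 young. These alternatives were chosen after seeing the data. Within series A it was 0.562 over 11 aged and 0.675 over 3 young rats, which differ by -0.113 with a standard error of 0.0315, and 9 of the 11 aged rats had a lower ratio than any of the 3 young rats. In series C the 1 aged rat, at 0.7, was above both young rats, at 0.438 and 0.65. In run 5 the means were 0.234 ± 0.113 over 16 aged and 0.176 ± 0.116 over 6 young rats, a difference of 0.0574 with a standard error of 0.0551. Within run 3 neighboring CpGs had very different ratios. CpG 39266272 had the highest mean of the window among the sites with at least 15 rats, at 0.992 in 12 aged and 0.976 in 6 young rats. CpG 39275106 in run 5 had the lowest, being at 0 in all 16 aged and all 6 young rats with a value.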

How the data were processed

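Libraries from 30 rats were analysed. Per the labels and the study's methods, the authors trimmed reads (Trimmomatic), discarded those with unconverted cytosines, mapped the others to rn5 (BSMAP) and deposited, per rat and cytosine, a methylation fraction (0 to 1) where at least 5 reads covered the site and at least 3 rats per compared group had a value. Versions are not given in the sources used here. Removing reads with unconverted bases lowers ratios at sites with non-CpG methylation. Read depth per rat and site was not analysed here, so no count model, coverage minimum or counting interval was possible.

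All 150 rat columns were mapped. In both sets of calls, all 2611 CpG ratios of shared sites were equal to 6 decimals. Groups come from the labels, and animals are the replicates. Sites were compared with Welch's test, 2-sided, with at least 3 rats per group and Benjamini-Hochberg adjustment over all sites. CHG and CHH sites needed a mean ratio over 0.1 in 1 group. Means over the window or a run carry no p. Single named sites were compared with a 2-sided permutation test of means, exact where possible, otherwise with 100000 resamples. Named were the sites of the window in the study's tables, the 4 CpGs with a value in most rats (10 tied at 30 rats, and the 4 lowest positions were taken), the 3 smallest p in each comparison, and the lowest and highest mean among sites with at least 15 rats. For CHG and CHH the 2 highest means and the smallest p per comparison were named. The members, lists and comparisons were chosen with earlier results of these data known. The number series, strand pairs and dense run were examined after seeing the data. The tests were checked on simulated data. Python 3.11.15, scipy 1.17.1 and limma 3.58.1 were used. No rn5 genome was used, so no sequences or annotation are given beyond the gene name in the study's tables.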

Additional observations from a re-analysis of the deposited data

Results flagged for a closer look

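In 36 groups of 4 to 10 values, 4 rats lay far from the others of their group, where chance marks about 1 group in 20. That share need not hold for ratios, many of which were tied at 0 or at 1, so the count cannot be set against it. At CpG 39271160, AI rat 7 (series B) had 0.5 while the next highest of the 8 AI rats with a value had 0.154. At CpG 39271171, AI rat 8 (series B) had 0.762 and the next highest of the 9 AI rats 0.467, which enters the difference between AI and AU rats given above. At CpG 39266272, young rat 5 (series C) had 0.857 and AI rat 3 (series A) had 0.9, while the other rats of these groups were at 1. No group's mean over the window or the dense run was marked in this way among the young and AI rats. The parts of depth and of the number series in these values were not tested.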

How the results depend on the processing

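The difference between aged and young rats kept its direction over the window (from -0.128 to -0.0861) and over the dense run (from -0.154 to -0.0823) in every alternative that pooled the series, and was smaller within series A alone (-0.0504 and -0.0400). The difference between series A and series B kept its direction too. It was -0.134 over the window and -0.186 with the median over sites. The difference between AI and AU rats turned to -0.00944 over the window and to -0.0114 over the dense run without series B. Of the CpGs of the window, the 28 called for age became 0 after adjustment, 9 without series A, 48 without series B and 6 without series C, with the shares of all sites given above. Within series A alone 10 of 141 were called (7.76% of all sites) and within series B alone 6 of 45 (5.56%). The 2 of 169 called for impairment became 0 after adjustment and 1 of 136 with at least 5 rats per group (4.36% of all sites). They became 5 of 113 without series A (3.74%), 1 of 151 without series B (4.14%), 0 of 167 without series C (4.11%) and 1 of 150 within series A (4.09%). Limma, which called 3 on ratios, called 4 on logit ratios (5.55%) and 5 with the series covariate (5.82%). Without the ratio filter 3 of 110 CHG sites (2.12% over all sites) and 5 of 241 CHH sites (1.43%) were called for age, and 2 of 105 CHG sites (0.811%) for impairment. When every rat had to have a value at a site, the difference between AI and AU rats was 0.00867 in CHG (from -0.000645) and 0.00115 in CHH (from -0.000478). Single sites changed sign as follows: within series A, CpG 39260727 (-0.0380) and CpG 39266272 (-0.00909) for age, and CpG 39271006 (-0.0241) and CpG 39271160 (-0.0226) for impairment, and with medians CpG 39261354 (-0.111) and CpG 39271006 (-0.00476) for impairment. The cause of these changes was not tested. At 5 reads a ratio moves in steps of 0.2, and the depth behind the ratio of a single rat was not analysed here.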

Other observations

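The name LOC257642 is also given in the study's tables to CpGs on chromosome 14 (46701149 to 46710758), where 99 CpG sites had values in the calls for age. Their mean ratio per rat was 0.452 ± 0.0573 over the 11 aged rats of series A and 0.592 ± 0.0413 over the 8 of series B. The 3 young rats of series A had a mean of 0.561 and the 3 of series B a mean of 0.579. Of the 13 pairs of adjacent CpG positions there, 12 had the higher ratio at the first position, with a median difference of 0.247. Whether reads of similar sequence were placed at both loci was not tested.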
